A study of Mus musculus with 4 samples.

Results

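The aldo-keto reductases, aldehyde dehydrogenases and carbonyl reductases of mouse were followed through RNA libraries of cultured cells that the labels call female germline stem cells. Members were the genes of the deposited table whose symbol begins with Akr1, Akr7, Cbr and a digit, or Aldh and a digit, leaving out Aldh1l2 and symbols with -ps. The rule used symbols only and no measured value, and it found 41 of 55359 genes. Poly(A) RNA of 4 libraries, called 01, 02, 21 and 22 after the numbers in their titles, was sequenced as paired ends. The labels give ovary as the tissue, female mice as the source and no mouse strain, age or treatment. All were grown with serum, the fibroblast and epidermal growth factors bFGF and EGF, leukemia inhibitory factor and the glial neurotrophic factor GDNF. According to its design text the series set celastrol, a plant triterpenoid, against untreated controls at 12 h with triplicate profiles. The 4 libraries carry no label that says which received celastrol or whether they came from separate cultures. All 4 were therefore left unassigned, nothing was tested between conditions, and values are given for each library in the order 01, 02, 21 and 22.

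These 3 families remove reactive carbonyl groups. Aldo-keto reductases and carbonyl reductases use NADPH to reduce aldehydes and ketones to alcohols, and several of them also act on steroids, prostaglandins or sugars. Aldehyde dehydrogenases use NAD or NADP to oxidise aldehydes to acids, and individual members make retinoic acid, clear acetaldehyde and lipid aldehydes, or carry out steps in the metabolism of single amino acids. Some of these genes are known as targets of NRF2, the transcription factor of the oxidative stress response, which binds the antioxidant response element.

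Promoters are shown for the 4 members with the widest spread over the libraries, so they were chosen by measured values. Only members with a promoter entry and an average of at least 5 FPKM, a level explained below, were considered. These 4 also form 2 contrasting pairs. Cbr3 and Akr7a5 had the widest and the next widest spread over the libraries and were highest in different libraries. Akr1c12 and Akr1e1 lie in one gene cluster and were also highest in different libraries. Each run covers the 250 bases before and the 50 bases after the annotated start in RefSeq on GRCm38.p6, read 5′ to 3′ on the strand of the gene, and capitals mark GCGTG, the core of the dioxin response element.
Cbr3, chr16:93682969-93683268, plus strand: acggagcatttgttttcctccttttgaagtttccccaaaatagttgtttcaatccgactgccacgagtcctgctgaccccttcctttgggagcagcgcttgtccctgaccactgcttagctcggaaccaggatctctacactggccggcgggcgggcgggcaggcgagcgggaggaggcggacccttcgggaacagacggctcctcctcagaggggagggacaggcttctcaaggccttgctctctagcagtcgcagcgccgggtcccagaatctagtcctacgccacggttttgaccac
Akr7a5, chr4:139310494-139310793, plus strand: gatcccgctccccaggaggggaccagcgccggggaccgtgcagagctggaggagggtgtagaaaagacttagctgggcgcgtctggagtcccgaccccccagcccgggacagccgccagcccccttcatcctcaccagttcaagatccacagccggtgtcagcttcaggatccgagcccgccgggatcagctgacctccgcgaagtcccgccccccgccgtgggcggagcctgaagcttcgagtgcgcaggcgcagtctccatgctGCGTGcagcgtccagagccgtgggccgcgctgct
Akr1c12, chr13:4279350-4279649, minus strand: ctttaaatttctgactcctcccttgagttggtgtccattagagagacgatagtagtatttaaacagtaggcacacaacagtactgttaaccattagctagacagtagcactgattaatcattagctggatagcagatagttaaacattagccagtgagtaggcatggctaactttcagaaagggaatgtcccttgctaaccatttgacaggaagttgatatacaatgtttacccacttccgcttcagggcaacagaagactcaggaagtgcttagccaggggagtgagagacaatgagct
Akr1e1, chr13:4609115-4609414, minus strand: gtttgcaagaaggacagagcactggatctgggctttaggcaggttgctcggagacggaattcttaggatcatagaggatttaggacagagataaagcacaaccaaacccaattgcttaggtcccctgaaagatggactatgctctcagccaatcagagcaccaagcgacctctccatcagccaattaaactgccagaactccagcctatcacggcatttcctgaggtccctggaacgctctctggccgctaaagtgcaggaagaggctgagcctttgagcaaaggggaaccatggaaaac
The antioxidant response element core TGACNNNGC and the AP-1 element TGANTCA, searched on both strands, were absent from these 4 windows, and GCGTG was found once, in Akr7a5. Promoter entries were found for 34 of the 41 members. Over all 32851 promoters of this length, 12.4% held TGACNNNGC, 7.81% held TGANTCA and 32.4% held GCGTG. Of the 34 members with an entry, 4 held TGACNNNGC (Akr1c19, Akr1cl, Aldh1a2 and Aldh9a1), 1 held TGANTCA (Aldh1a1) and 11 held GCGTG. No match in a member overlapped a match of another motif. A match is a run of letters and not a measured binding site, and elements outside the windows were not searched.

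The libraries held 12339636, 13039541, 12388380 and 12850347 counts, and they did not lie equally far apart. The median absolute difference of log2(FPKM + 1) over the members with a mean of 1 FPKM or more was 0.09 between libraries 01 and 02 and 0.07 between 21 and 22, against 0.21 to 0.31 for the other 4 pairs. FPKM is the count divided by the exonic gene size and by the library total. Over all genes at that level the same differences were 0.09, 0.08 and 0.16 to 0.17. The labels do not say what separates these pairs. The defining markers of the labelled cell type were near 0 apart from Zbtb16, which was at 0.67, 0.89, 0.86 and 1.02 FPKM. Of 14 germ cell markers none reached 1 FPKM in all libraries, 6 had no count at all (Dppa3, Prdm14, Nanos2, Nanos3, Tfap2c and Figla), and their summed level was 1.15 to 1.43 FPKM. Of 12 mast cell markers 4 reached it in all of them, namely Kit, Cpa3, Gata2 and Mitf, while Fcer1a, Tpsb2, Mcpt4 and Mrgprb1 had no count. Of 6 fibroblast markers 5 were at that level in every library, whereas all 7 granulosa and luteal markers and all 3 liver markers were under it. The cells are therefore called by their labels only.

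The members ranged from no count to a median of 280.5 FPKM for Akr1c13. At 1 FPKM or more, 19 of 41 members were detected in every library, against 20.1% of all genes in the table. A further 2, Akr1b7 and Aldh5a1, were detected in all libraries but 21, Aldh3b1 was detected in 2 libraries, and the other 19 stayed below the threshold throughout. Of all members 5 had no count, and 12 had between 1 and 20 counts over the 4 libraries. The members together took 0.242%, 0.234%, 0.217% and 0.218% of all counts, with Wilson 95% intervals of 0.239% to 0.245%, 0.231% to 0.237%, 0.215% to 0.220% and 0.216% to 0.221%. Libraries 01 and 02 thus had the higher shares, and their intervals did not overlap those of 21 and 22. The sum is weighted by the abundant members. Of the members averaging 1 FPKM or more, 8 had 01 and 02 as their 2 highest libraries and 8 had 21 and 22. The Wilson intervals, like all others given here, cover counting error only and hold no variation between cultures or library preparations. PCR copies are not independent molecules, so the intervals may be too narrow even for counting error. In bulk RNA, fewer cells of a type and less RNA per cell cannot be told apart.

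Most of the RNA of these families came from 4 genes. Akr1c13, Akr1a1, Akr1c12 and Aldh18a1 made up 80%, 79.8%, 77.2% and 77.7% of the summed FPKM of the members. Their median levels over the libraries were 280.5, 217.9, 104.5 and 98.8 FPKM, and the next was Aldh2 at 42.1 FPKM. Akr1c13 was above Akr1a1 and Akr1a1 above Akr1c12 in each library, with Poisson 95% intervals apart. Akr1c12 and Aldh18a1 changed places. The first was higher in libraries 01 and 02 and the second in 21 and 22. Among the members with a mean of 1 FPKM or more, most neighbours in the order of medians had overlapping ranges over the libraries.

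**Figure D1:**
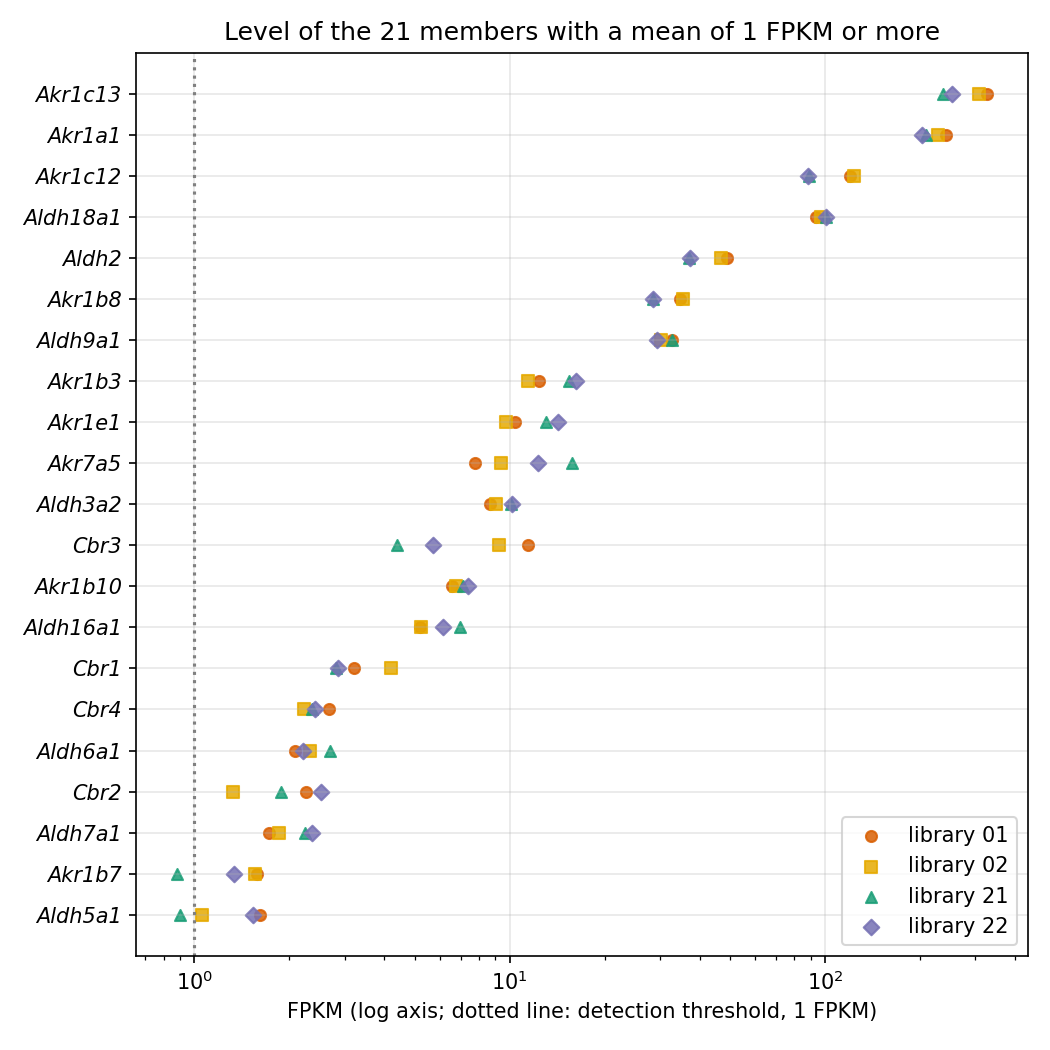
Level of the 21 members with a mean of 1 FPKM or more, in FPKM on a log axis, 1 symbol per library and the dotted line at 1 FPKM. Akr1c13, Akr1a1, Akr1c12 and Aldh18a1 stand apart at the top, with medians of 98.8 to 280.5 FPKM, and Akr1b7 and Aldh5a1 at the bottom cross the dotted line in library 21.

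Of the reductases Akr1a1, Akr1e1 and Akr7a5, the first was abundant and the last had the widest spread. Akr1a1 encodes aldehyde reductase, which in mouse also serves vitamin C synthesis by reducing glucuronate (ENSMUSG00000028692, chromosome 4, 116493707 to 116508877 on the minus strand). The deposited coordinates carry no genome build, which is not given in the sources used here. Akr1a1 was at 242.6, 227, 208 and 204 FPKM, from 8232, 8154, 7101 and 7196 counts. Library 01 was highest and 22 lowest, 1.19-fold apart (95% interval 1.15 to 1.23), and 21 and 22 overlapped. Akr7a5, a reductase of aflatoxin aldehyde and succinic semialdehyde (ENSMUSG00000028743, chromosome 4, 139038055 to 139045737 on the plus strand), ran the other way at 7.77, 9.41, 15.8 and 12.3 FPKM, from 172, 220, 350 and 284 counts. Libraries 21 and 22 were the higher ones, and library 21 was 2.03-fold above library 01 (1.68 to 2.45). Its log2 range, the highest minus the lowest log2(FPKM + 1), was 0.93, and 0.60 without library 21. Akr1e1, which reduces 1,5-anhydrofructose, was at 10.4, 9.73, 13.1 and 14.2 FPKM. It too was higher in 21 and 22, with library 22 at 1.46-fold of library 02 (1.29 to 1.65). The level of Akr1a1 was therefore 31.2, 24.2, 13.2 and 16.5 times that of Akr7a5 within the same library, per length.

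All 4 genes of the Akr1b cluster on chromosome 6 were transcribed, and they did not share an order of libraries. The cluster spans 121 kb in the deposited coordinates. Akr1b3 encodes aldose reductase, which turns glucose into sorbitol (ENSMUSG00000001642, chromosome 6, 34279369 to 34294413 on the minus strand). It was at 12.4, 11.4, 15.4 and 16.2 FPKM, from 1280, 1250, 1602 and 1748 counts. Libraries 21 and 22 were above 01 and 02 with intervals apart, and library 22 was 1.42-fold above library 02 (1.32 to 1.53). Akr1b8, first known as a gene responsive to fibroblast growth factor (ENSMUSG00000029762, chromosome 6, 34331054 to 34345398 on the plus strand), was at 34.8, 35.5, 28.4 and 28.6 FPKM, from 643, 694, 528 and 550 counts. Here 01 and 02 were the higher libraries, and library 02 was 1.25-fold above library 21 (1.11 to 1.40). Akr1b10 was nearly even at 6.58, 6.75, 7.10 and 7.40 FPKM, and its highest and lowest libraries overlapped. Akr1b7, known from vas deferens and adrenal cortex, was close to the detection threshold at 1.58, 1.56, 0.88 and 1.34 FPKM, from 25, 26, 14 and 22 counts, and no library stood apart.

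Ratios between relatives within a library do not depend on depth or scaling. Akr1b8 was 2.81, 3.11, 1.84 and 1.76 times the level of Akr1b3 per length. The 95% intervals of this ratio were 2.55 to 3.09, 2.83 to 3.41, 1.67 to 2.04 and 1.60 to 1.94, so those of 01 and 02 lay above those of 21 and 22. Akr1b8 was 5.28, 5.26, 4 and 3.86 times the level of Akr1b10. The intervals of this ratio in 01 (4.59 to 6.09) and 02 (4.60 to 6.04) lay above that of 22 (3.36 to 4.43) and overlapped that of 21 (3.47 to 4.62). The Akr1b genes share coding sequence, with 72.1% to 89.2% identical bases between pairs in GENCODE M21, but 100% of the 100-base stretches of Akr1b7, Akr1b8 and Akr1b10 transcripts occurred in no other gene. For Akr1b3 92.6% did, and the rest was shared with 3 predicted genes.

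**Figure D2:**
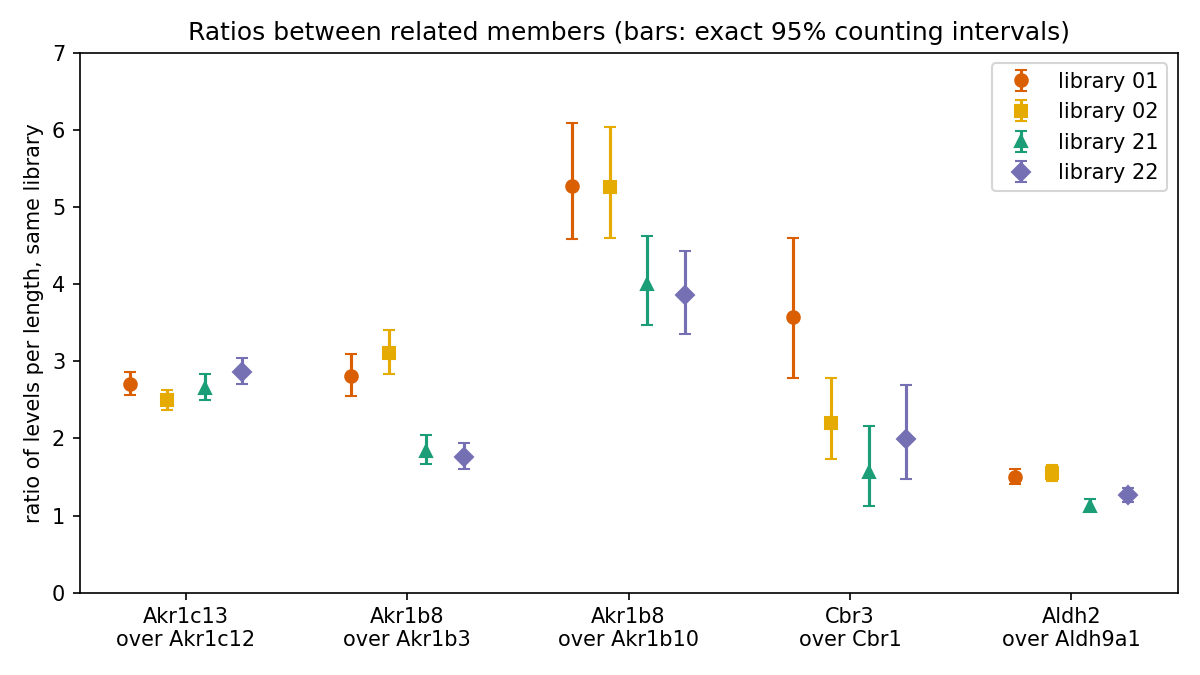
Ratio of the levels per length of 2 related members in the same library, with exact 95% counting intervals as bars and 1 symbol per library. Akr1b8 over Akr1b3 is 2.81 and 3.11 in libraries 01 and 02 and 1.84 and 1.76 in 21 and 22. Akr1c13 over Akr1c12 runs from 2.50 in library 02 to 2.86 in library 22, and the intervals of these libraries are apart.

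In the Akr1c cluster on chromosome 13, a pair of genes held almost all of the RNA. The cluster holds 8 Akr1c genes and Akr1e1 over 560 kb. Akr1c enzymes are hydroxysteroid dehydrogenases, and Akr1c12 and Akr1c13 are known from myeloid, stomach and liver tissue of mouse. Akr1c13 (ENSMUSG00000021213, chromosome 13, 4241149 to 4255595 on the plus strand) was at 326, 308, 236 and 253 FPKM, from 5775, 5752, 4190 and 4671 counts. Akr1c12 (ENSMUSG00000021211, chromosome 13, 4318175 to 4329432 on the minus strand) was at 120.4, 123, 88.7 and 88.6 FPKM, from 1873, 2027, 1385 and 1435 counts. Both were higher in libraries 01 and 02 than in 21 and 22, with Poisson intervals apart. The highest and lowest libraries differed 1.38-fold for Akr1c13 (1.33 to 1.44) and 1.39-fold for Akr1c12 (1.30 to 1.49). Akr1c13 was 2.71, 2.50, 2.66 and 2.86 times the level of Akr1c12. The intervals of this ratio in library 02 (2.37 to 2.63) and library 22 (2.70 to 3.04) were apart. Their coding sequences were identical at 932 of 969 bases, or 96.2%, and 88.5% of the 100-base stretches of Akr1c12 and 90.6% of those of Akr1c13 were unique, so reads may have been misassigned between the pair and each level is uncertain. The summed level of the mast cell markers was also higher in 01 and 02, at 573, 564, 470 and 492 FPKM. That of the fibroblast markers was too, at 83, 84.6, 77.3 and 79 FPKM, although Dcn was higher in 21 and 22. Of the mast cell markers, Cpa3, a granule protease, was at 333, 325, 229 and 247 FPKM. Gata2 was at 173, 165, 131 and 135 FPKM. The receptor gene Kit ran the other way at 58.9, 64.6, 100.7 and 100.3 FPKM. Mitf was highest in 22, at 7.81, 8.31, 8.18 and 9.46 FPKM. In the mast cell list 4 of 12 markers were detected in every library and Fcer1a, Tpsb2, Mcpt4 and Mrgprb1 were at 0. The part of cells of either type in the Akr1c levels was not tested.

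**Figure D3:**
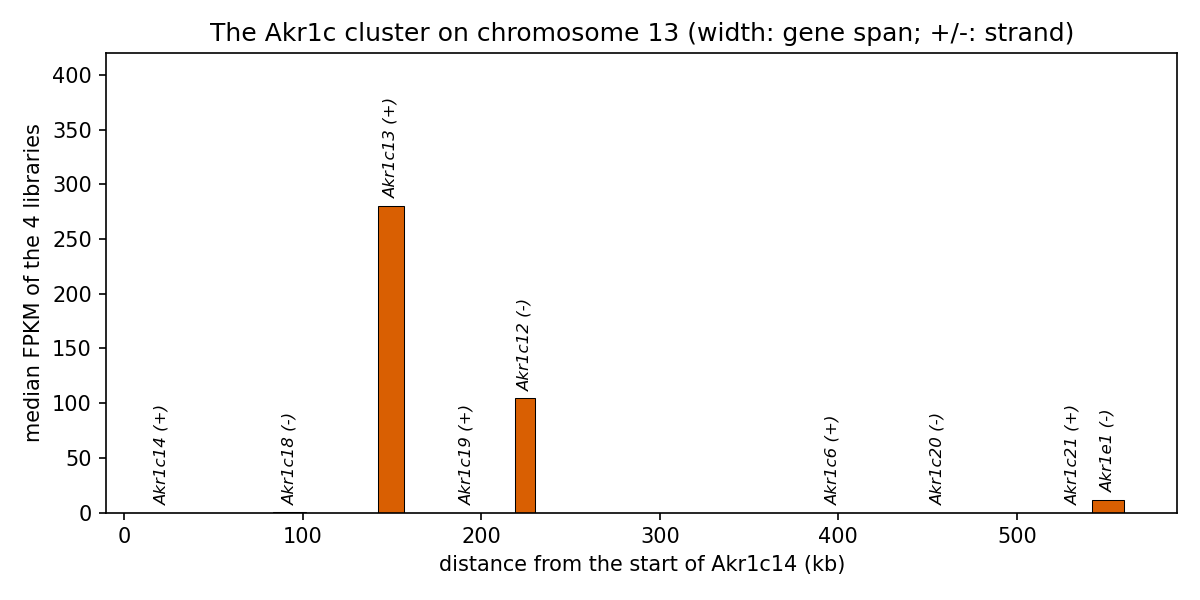
Median FPKM over the 4 libraries of the 9 members in the cluster on chromosome 13, against distance from the start of Akr1c14 in kb, each bar as wide as the gene. Akr1c13 at 280.5 and Akr1c12 at 104.5 FPKM stand beside 6 Akr1c genes with medians of at most 0.37 FPKM, and Akr1e1 at the far end is at 11.8 FPKM.

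The other steroid-related members were at or near 0. Akr1c18, the 20-alpha-hydroxysteroid dehydrogenase that inactivates progesterone in the corpus luteum, had 5, 1, 6 and 8 counts and at most 0.52 FPKM. Akr1c6 and Akr1c20 had no count, where 3 counts in a library equal at most 0.120 and 0.131 FPKM. Akr1d1, the steroid 5-beta-reductase of bile acid synthesis, also had none, with a limit of 0.084 FPKM. Akr1c14, Akr1c19 and Akr1cl had 1 count each in all libraries together. Akr1c21 had 2, 3, 0 and 0 counts. The depth of these libraries does not show whether such single counts differ from 0.

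All 4 carbonyl reductase genes were detected in every library, and Cbr3 had the widest spread of any member. Cbr3 encodes a cytosolic NADPH-dependent reductase (ENSMUSG00000022947, chromosome 16, 93480103 to 93487878 on the plus strand). It was at 11.4, 9.23, 4.38 and 5.71 FPKM, from 177, 151, 68 and 92 counts. Libraries 01 and 02 were the higher ones, and every interval of that pair (9.82 to 13.3 and 7.82 to 10.8 FPKM) lay above those of 21 and 22 (3.40 to 5.55 and 4.60 to 7 FPKM). Library 01 was 2.61-fold above library 21 (1.97 to 3.51). The log2 range was 1.21, and it was 0.93 without library 01 and 0.89 without library 21. Its neighbour 77 kb upstream, Cbr1, a reductase of quinones and prostaglandin E2, was at 3.20, 4.20, 2.81 and 2.86 FPKM, from 101, 140, 89 and 94 counts. Library 02 was the highest, at 1.49-fold of library 21 (1.14 to 1.97), and overlapped library 01. Cbr3 was 3.57, 2.20, 1.56 and 1.99 times the level of Cbr1, and the intervals of the first (2.78 to 4.60) and the third (1.12 to 2.16) were apart. The coding sequences of the pair were 77.8% identical, and 100% of the 100-base stretches of each were unique. Cbr2, known as the carbonyl reductase of lung mitochondria, was at 2.26, 1.33, 1.89 and 2.52 FPKM, with 37, 23, 31 and 43 counts, and library 22 was 1.9-fold of library 02 (1.12 to 3.30), although the Poisson intervals overlapped. Cbr4, a subunit of the ketoacyl reductase of mitochondrial fatty acid synthesis, was at 2.67, 2.22, 2.36 and 2.42 FPKM, and its libraries overlapped too.

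Among the mitochondrial aldehyde dehydrogenases, Aldh18a1 and Aldh2 were the most abundant. Aldh18a1 makes pyrroline-5-carboxylate for proline synthesis (ENSMUSG00000025007, chromosome 19, 40538701 to 40576907 on the minus strand) and was at 93.5, 96.8, 100.8 and 100.9 FPKM, from 4696, 5140, 5086 and 5278 counts. The log2 range was 0.11, and 0.06 without library 01. Library 22 was above library 01 beyond counting error, at 1.08-fold (1.04 to 1.12). Gm15801 overlaps Aldh18a1 on the same strand over 522 bases and had at most 63 counts in a library. Aldh4a1, which degrades the same intermediate, was under the threshold at 0.40, 0.55, 0.49 and 0.60 FPKM. Only 72.5% of its 100-base stretches were unique to it, the rest being shared with the overlapping Gm21969. Aldh2, the enzyme that clears acetaldehyde and lipid aldehydes (ENSMUSG00000029455, chromosome 5, 121704090 to 121731887 on the minus strand), was at 49.0, 46.9, 37.1 and 37.3 FPKM, from 3101, 3135, 2353 and 2454 counts. Libraries 01 and 02 lay above 21 and 22 with intervals apart, and library 01 was 1.32-fold above library 21 (1.25 to 1.40). Aldh1b1, a mitochondrial relative of Aldh2, had 3 counts in library 01 and none elsewhere.

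Aldh6a1, Aldh5a1 and Aldh7a1 were low. Aldh6a1, the methylmalonate semialdehyde dehydrogenase of valine breakdown, was at 2.09, 2.32, 2.69 and 2.21 FPKM, with library 21 at 1.29-fold of library 01 (1.04 to 1.61) and overlapping Poisson intervals. Aldh5a1, which ends the breakdown of the transmitter GABA, was at 1.61, 1.06, 0.90 and 1.53 FPKM, with 112, 78, 63 and 111 counts. The higher libraries were 01 and 22, 1 of each close pair, and library 01 was 1.78-fold above library 21 (1.30 to 2.47). Aldh7a1, which acts in lysine breakdown, was at 1.72, 1.85, 2.24 and 2.36 FPKM, with library 22 at 1.37-fold of library 01 (1.07 to 1.77) and overlapping Poisson intervals. It overlaps Phax on the opposite strand over 10509 bases of gene span, and Phax had a median of 20.6 FPKM. Aldh6a1 overlaps Bbof1 on the opposite strand over 12171 bases, and Bbof1 had at most 59 counts in a library. No step that keeps the strand is named, so reads from the shared parts cannot be told apart.

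The remaining detected aldehyde dehydrogenases were Aldh9a1, Aldh3a2 and Aldh16a1. Aldh9a1, which serves carnitine synthesis, was at 32.6, 30.3, 32.8 and 29.4 FPKM, and its higher libraries were 01 and 21. Aldh2 was 1.5, 1.55, 1.13 and 1.27 times the level of Aldh9a1. Aldh3a2, the fatty aldehyde dehydrogenase whose loss causes Sjögren-Larsson syndrome in human, was at 8.65, 9.02, 10.1 and 10.2 FPKM, with library 22 at 1.17-fold of library 01 (1.05 to 1.31). Aldh16a1, which in mammals lacks the catalytic cysteine, was at 5.20, 5.22, 6.98 and 6.15 FPKM, with library 21 at 1.34-fold of library 01 (1.17 to 1.54), and it overlaps Pih1d1 on the opposite strand over 282 bases. Aldh3a1, known as a corneal crystallin and as a target of the dioxin receptor, was under 1 FPKM but uneven, with 12, 23, 2 and 7 counts. The ratio of library 02 to library 21 was 10.9, with a counting interval of 2.70 to 95.6. Aldh3b1 had 10, 31, 32 and 25 counts and was lowest in library 01, with library 21 at 3.19-fold of it (1.53 to 7.27). Aldh3b2 had 9 counts in all, Aldh8a1 had 5 and Aldh3b3 had none, where 3 counts equal at most 0.0582 FPKM.

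The retinaldehyde dehydrogenases were nearly absent while other parts of the retinoid pathway were transcribed. These enzymes, Aldh1a1, Aldh1a2 and Aldh1a3, make retinoic acid from retinaldehyde. Aldh1a1 had 1 count in library 02, Aldh1a2 had 1 count in library 22, and Aldh1a3 had 2, 1, 2 and 2 counts. Their Poisson upper bounds were at most 0.0865, 0.192 and 0.127 FPKM in any library. Aldh1a7 had no count, and Aldh1l1, which oxidises formyl-tetrahydrofolate, had 2 counts in library 01. Of 22 other retinoid genes, 11 were detected throughout and the other 11 in no library. The highest were Rxrb, a partner receptor, at 26.8, 26.6, 24.4 and 22.5 FPKM, the retinoic acid receptor gene Rarg at 19.0, 18.2, 16.8 and 16.3 FPKM, and the retinal reductase gene Rdh11 at 15.0, 13.5, 14.2 and 12.7 FPKM. None of the 11 had a log2 range over 1, and their median range was 0.25. Of all genes averaging at least 1 FPKM, 3.61% had such a range, so 11 genes are too few for this count to set them apart. Of the 11, 8 had 01 and 02 as their 2 highest libraries and 1 had 21 and 22. The shares of all genes at that level were 31.1% and 31.2%. Whether the split of the 11 differs from these shares was not tested.

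Over the 21 members with a mean of 1 FPKM or more, the median log2 range was 0.40, against 0.28 over the 11874 genes that reach this mean. Cbr3 was the 1 member with a range over 1, or 4.76% of the 21, against 3.61% of all genes. The count was 2 with a pseudocount of 0.1, where Akr7a5 joined, and 0 with a pseudocount of 5 or without library 01 or 21. The intervals of the highest and the lowest library were apart for 15 of 21 members, or 71.4%, against 56.9% of all genes. The 2 highest libraries were 01 and 02 for 8 members (Akr1a1, Akr1b7, Akr1b8, Akr1c12, Akr1c13, Aldh2, Cbr1 and Cbr3), against 31.1% of all genes. They were 21 and 22 for 8 others (Akr1b3, Akr1b10, Akr1e1, Akr7a5, Aldh3a2, Aldh7a1, Aldh16a1 and Aldh18a1), against 31.2% of all genes. Each count of members was 38.1% of the 21, close to these shares, although the summed share of counts given above was higher in 01 and 02. The 8 members of each kind kept their pair of libraries under each of 3 other scalings.

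**Figure D4:**
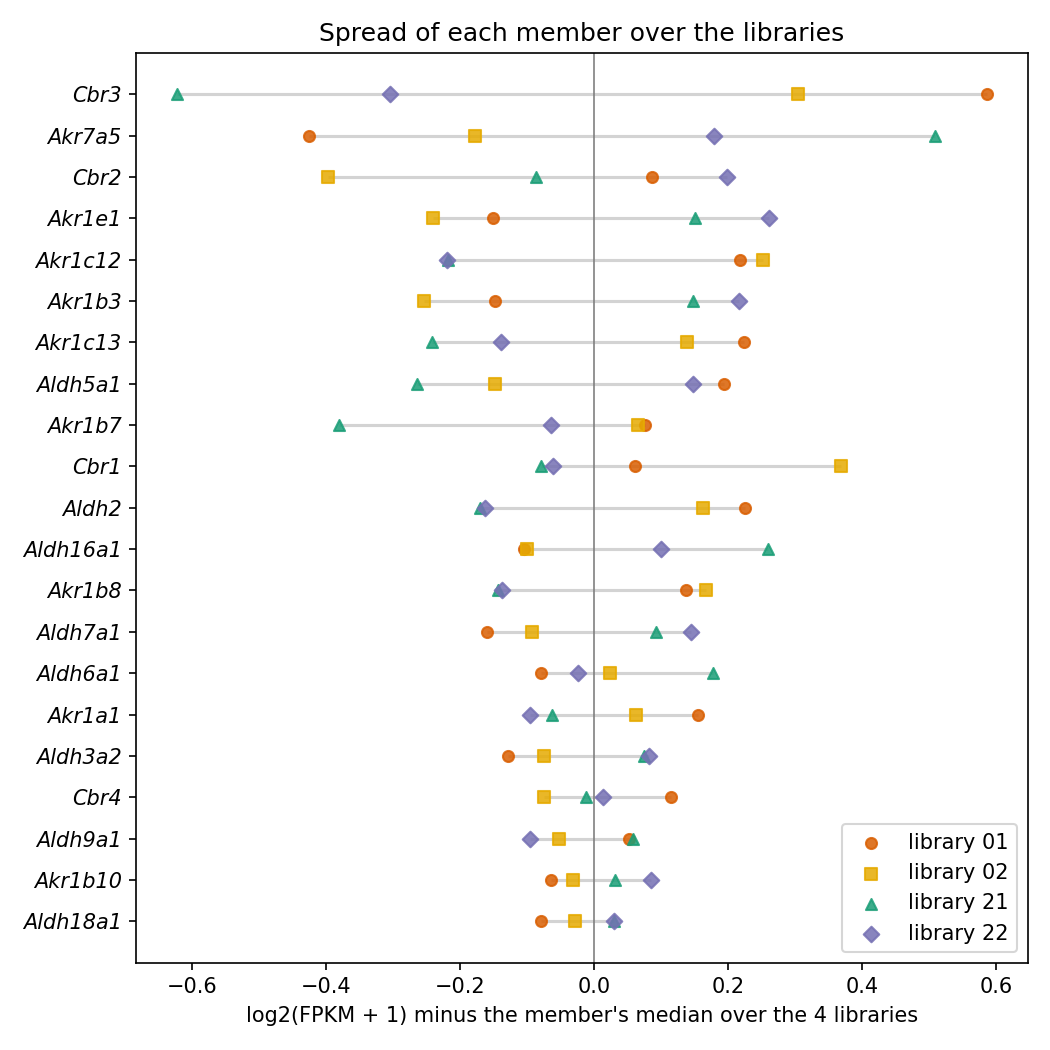
Difference of log2(FPKM + 1) in each library from the median of the member over the 4 libraries, 1 row per member and 1 symbol per library, ordered by log2 range. Cbr3 at the top (1.21) and Akr7a5 below it (0.93) have opposite orders of libraries, and Aldh18a1 at the bottom has a range of 0.11.

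**Figure D5:**
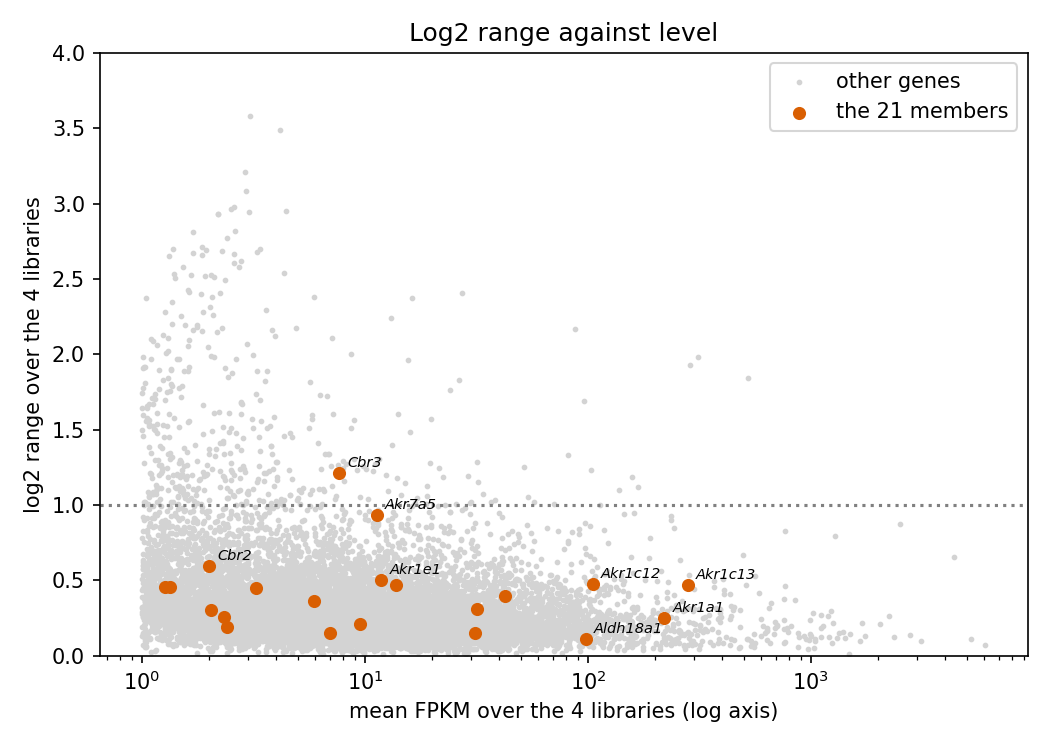
Log2 range over the libraries against mean FPKM on a log axis for the 11874 genes whose mean reaches 1 FPKM, with the 21 members in orange and the dotted line at a range of 1. Cbr3 is the only member above the line, where 3.61% of all these genes lie, and the rest lie within the cloud of other genes.

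Among enzymes outside these families that handle the same kinds of compound, Gsta4 and Ptgr1 had the widest spread. Of 32 such genes, 24 were detected in every library. Of the 25 with a mean of 1 FPKM or more, 2 had a range over 1, against 3.61% of all genes at this level. Their median range was 0.29. Gsta4, the glutathione transferase of the lipid aldehyde hydroxynonenal, was at 21.3, 20.6, 3.70 and 6.95 FPKM, from 332, 340, 58 and 113 counts, a log2 range of 2.24. Ptgr1, which reduces the double bond of leukotriene and prostaglandin metabolites, was at 40.2, 40.2, 17.1 and 18.9 FPKM, a range of 1.19. Both were higher in libraries 01 and 02, as Cbr3 was. Of the 25 genes, however, 6 had 01 and 02 as their 2 highest libraries and 11 had 21 and 22. The shares of all genes at this level were 31.1% and 31.2%. The 3 highest of the list were Esd, an esterase of formaldehyde disposal, at 128, 122, 70.1 and 69.1 FPKM, Park7, the redox protein DJ-1, at 85.7, 86.7, 105 and 100.3 FPKM and Hsd17b12, a ketoacyl reductase of fatty acid elongation, at 72.2, 76.2, 77.8 and 76.7 FPKM.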

How the data were processed

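RNA of 4 libraries was analysed from 1 table of genes. Per the file headers, the deposited table holds a raw count and an FPKM value per gene and library. The deposited counts are whole and their totals differ between libraries, so they were treated as not normalised. The FPKM values were computed by the authors, and count, exonic size and library total returned them within 0.0738% for genes above 10 FPKM. The submitters' processing notes name FastQC, HISAT2 and DESeq2, without version or role. Counter, build and annotation were not given in the sources used here, and 1 of 41 members had the same start as in GENCODE M21 on GRCm38, so deposited coordinates were printed as they stand.

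Members, gene lists and rules were chosen with earlier results of these data known. Every member was accounted for, those averaging 1 FPKM or more with values in each library. Of the related lists, members with a log2 range over 1 and the 3 highest medians were named, and further markers were named after their values were seen. Log2 values used a pseudocount of 1, which understates the differences of low genes. Poisson intervals, ratio intervals from the conditional binomial (both exact, 95%) and Wilson intervals were computed with scipy 1.17.1, and TMM factors with edgeR 4.0.16. Where a library had 0 counts, 3 counts were taken as the limit that allows. No test between groups was run. The calculations were tested on simulated Poisson counts. Dixon's ratio of gap to range was computed for 21 members and passed its critical value of 0.829 for 0 of them. Promoters came from RefSeq (GRCm38.p6). Shared stretches of 100 bases and coding identity came from GENCODE M21, which is not known to be the authors' annotation. Alternatives were other pseudocounts, filters, thresholds and scalings, and leaving out each library.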

Additional observations from a re-analysis of the deposited data

How the results depend on the processing

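The 3 other scalings (median-of-ratios size factors, TMM effective library sizes and a common sum of FPKM) gave the same count of 1 member with a log2 range over 1, the same 8 members highest in libraries 01 and 02, and a median range of 0.390 to 0.394. They shifted the median of all genes between libraries by at most 0.03 on the log2 scale. The count of members with a range over 1 depended on the pseudocount. It was 2 with a pseudocount of 0.1, where Akr7a5 reached 1.01, and 0 with a pseudocount of 5. Leaving out each library in turn gave 0 to 1 such members, 0 without library 01 or 21. It gave a median range of 0.305 to 0.392 and 19 to 21 members detected in every remaining library. Members detected in every library numbered 21 at 0.5 FPKM and 17 at 2 FPKM. The median range was 0.38 over the 14 members averaging at least 5 FPKM and 0.25 with no filter, which adds members of few counts. Of the ranges of single members, those of Akr1c13 and Akr1a1 without library 01, and of Akr1c13 and Akr7a5 without library 21, narrowed by more than their counting error, since those libraries held the highest or lowest value. No paired analysis was possible because no library was assigned to a group. Depth limits the members under 20 counts, whose differences were not detectable, and the number of libraries gives no replicate error.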
